A study of Homo sapiens with 12 samples.

Results

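The genes described here are 9 genes of MHC class I antigen presentation: the invariant light chain B2M, the heavy chains HLA-B, HLA-C, HLA-E and HLA-F, the peptide transporter subunits TAP1 and TAP2, the loading factor TAPBP (tapasin) and the transactivator NLRC5. They were taken by gene symbol, and all 9 were found among the 48114 genes of the deposited tables. RNA was measured in 12 libraries of 2 cell lines of pancreatic ductal adenocarcinoma (PDAC), with 3 libraries per group. PANC-1, which the study treats as basal-like, received a control siRNA (siCtrl) or siRNAs at 40 nM against the splicing factor QKI (siQKI) or the splicing factor RBFOX2 (siRBFOX2) for 48 h. HPAF-II, which the study treats as classical, was labelled as having received siCtrl for 48 h. The comparisons ask whether lowering either splicing factor was accompanied by a change in class I genes, and how the class I genes of both lines differ. Each group is a single established line, so its libraries do not sample different tumors.

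MHC class I molecules display peptides of a cell's own proteins to CD8+ T cells. Peptides cut by the proteasome are carried into the endoplasmic reticulum by the TAP1-TAP2 transporter, trimmed there by ERAP1 and ERAP2, and fitted onto a heavy chain paired with B2M by a loading complex that contains tapasin, calreticulin (CALR) and PDIA3. HLA-B and HLA-C are classical chains that present to T cells, HLA-E is read mainly by receptors of natural killer (NK) cells, and HLA-F is a weakly expressed non-classical chain. NLRC5 is recruited to class I promoters by proteins bound to their X and Y boxes, and interferon response elements and NF-kB sites add to this control. Loss of class I display is a known route by which tumors avoid T cells.

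Of the 9 genes, 7 lie on chromosome 6, B2M lies on chromosome 15 and NLRC5 on chromosome 16. On hg38 the tables place HLA-F at chr6:29723401-29740354, HLA-E at chr6:30489454-30494199, HLA-C at chr6:31268749-31272136, HLA-B at chr6:31353873-31357179, TAP2 at chr6:32821831-32838770, TAP1 at chr6:32845209-32854007 and TAPBP at chr6:33299694-33314244. B2M is at chr15:44711514-44718145 and NLRC5 at chr16:56989546-57083531. The heavy chains resemble each other and vary between people, so reads could be split between them or lost against the reference alleles, and their values are uncertain in this respect. The effect of this on the values was not tested.

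Promoter sequences were available from RefSeq (GRCh38.p14) for 7 of the 9 genes, from 250 bases before to 50 bases after the annotated start. The 160 bases before the start are printed for B2M, for the closely related HLA-B and HLA-C, and for TAP1 and TAP2, whose transcripts are set against each other below. RefSeq starts can differ from the gene ends given above, and the TAP1 window lies wholly within TAP1 as placed there. They are given 5′ to 3′ on the strand of the gene, and capitals mark the interferon-stimulated response element core, the CCAAT box and the core of the cyclic AMP response element (CRE).
B2M (chr15:44711357-44711516, plus strand): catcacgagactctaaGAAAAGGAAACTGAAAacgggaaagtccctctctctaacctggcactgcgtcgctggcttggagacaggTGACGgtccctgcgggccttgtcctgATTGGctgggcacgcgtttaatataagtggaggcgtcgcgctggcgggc
HLA-B (chr6:31357180-31357339, minus strand): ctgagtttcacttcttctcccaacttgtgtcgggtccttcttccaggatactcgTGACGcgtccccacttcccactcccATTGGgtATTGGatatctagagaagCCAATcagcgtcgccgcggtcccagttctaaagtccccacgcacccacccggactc
HLA-C (chr6:31272093-31272252, minus strand): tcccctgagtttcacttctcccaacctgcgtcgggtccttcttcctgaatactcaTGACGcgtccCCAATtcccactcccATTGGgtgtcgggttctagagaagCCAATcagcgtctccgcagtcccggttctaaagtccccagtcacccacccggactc
TAP1 (chr6:32853705-32853864, minus strand): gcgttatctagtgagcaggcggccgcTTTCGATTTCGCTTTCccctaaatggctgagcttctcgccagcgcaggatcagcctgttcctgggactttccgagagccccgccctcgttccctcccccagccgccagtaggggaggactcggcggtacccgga
TAP2 (chr6:32838740-32838899, minus strand): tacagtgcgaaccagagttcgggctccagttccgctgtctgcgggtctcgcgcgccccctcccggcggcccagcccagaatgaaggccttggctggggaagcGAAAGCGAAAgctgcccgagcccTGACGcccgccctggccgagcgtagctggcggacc

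All motifs were searched on both strands, and the response element core was searched as GAAANNGAAA. It was present in 5 of the 7 promoters (B2M, HLA-F, TAP1, TAP2 and TAPBP) and in 3.57% of all 35116 promoters of the same length. In B2M and TAP1 overlapping copies spanned bases -144 to -129 and -134 to -119 from the start, while the copy of TAP2 lay at -58 to -49 and the overlapping copies of TAPBP at -20 to -5. HLA-B and HLA-C held no exact match to these letters. Elements that depart from them were not searched for, so the search does not show that these promoters lack a response element. Both held the CRE core TGACG, at -106 to -102 in HLA-B and -105 to -101 in HLA-C, and several copies of the CCAAT box. B2M and TAP2 held the CRE core beside the response element core. The CRE core was found in 4 of the 7 promoters against 24.6% of all promoters, the CCAAT box in 5 of the 7 against 34.6%, and the NF-kB consensus in 5 of the 7 against 11.3%. The gamma-activated site TTCNNNGAA was found in 0 of the 7 and in 7.66% of all promoters. These matches are letters in the reference sequence, not measured binding.

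**Figure D1:**
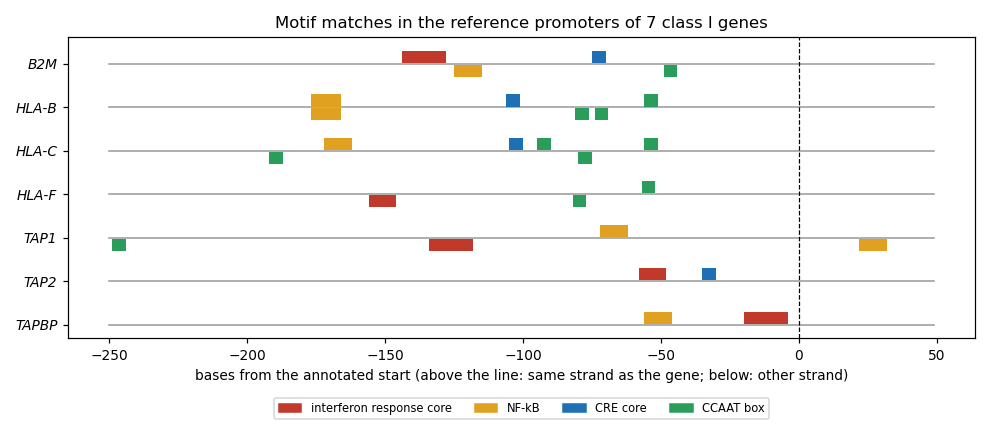
Motif matches in the reference promoters of 7 class I genes, by distance in bases from the annotated start (dashed line), with matches on the strand of the gene above each line and on the other strand below it. HLA-B, HLA-C and HLA-F share CCAAT boxes on both strands, and the response element core is nearest to the start in TAPBP.

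The deposited values are gene counts divided by a size factor for each library, called normalized counts here. PANC-1 and HPAF-II libraries were scaled separately. Library totals ranged from 292248837 to 376192091 counting steps for PANC-1 and from 226697015 to 309720537 for HPAF-II, where a step is the smallest unit of the values and not a sequenced fragment, so the depth in fragments is unknown. All 9 genes exceeded the minimum mean of 10 normalized counts. QKI fell by 80.3% in the siQKI libraries (5034 ± 412 against 25533 ± 869 normalized counts in siCtrl, mean ± SD, n = 3; limma adjusted p = 9.15e-13), and RBFOX2 fell by 86.5% in the siRBFOX2 libraries (2095 ± 352 against 15429 ± 76.8, n = 3; limma adjusted p = 4.7e-11). RBFOX2 was also 18.1% lower in siQKI than in siCtrl (limma log2 fold change -0.29, adjusted p = 0.0207), a call that was lost in 6 of 17 alternatives. The leukocyte markers PTPRC and MS4A1 were at 0 in the control libraries of both lines and all 6 epithelial markers exceeded a mean of 10 in every group, while 3 of 8 blood cell markers were at 0 in all siCtrl libraries of PANC-1. The summed blood cell markers lay between 1.16 and 2.28 per 1000000 in all PANC-1 libraries. The other marker lists moved. The summed epithelial markers were 2133 to 2290 in siRBFOX2, below the 2550 to 2643 of siCtrl and the 2558 to 2715 of siQKI, with KRT8, KRT18 and KRT19 lower and CDH1 higher in siRBFOX2, and KRT18 lower and CDH1 higher in siQKI. The summed endothelial and fibroblast markers were 0.609 to 0.942 in siCtrl, 1.80 to 2.14 in siQKI and 0.862 to 2.30 in siRBFOX2. Only 2 of these 6 markers could be tested. PDGFRB was higher in both knockdowns (limma adjusted p = 9.7e-04 and 0.0276), and the other tested marker did not pass in either. The median log2 fold change of the 2 was -0.72 in siQKI and 0.37 in siRBFOX2. The part of these markers in the class I values was not tested. Fewer cells with a transcript and less of it per cell cannot be told apart in these libraries.

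In PANC-1 cells silenced for QKI, 3 of the 9 class I genes passed the threshold (limma, adjusted p under 0.05): HLA-C rose, and both transporter subunits, TAP1 and TAP2, fell. In cells silenced for RBFOX2, 4 of the 9 passed, all upward: HLA-C, HLA-E, TAP1 and NLRC5. Over all 22544 genes tested, 33.0% passed in siQKI (14.9% higher, 18.1% lower) and 26.5% in siRBFOX2 (12.0% higher, 14.5% lower), so the count of class I genes in siQKI was close to the background and that in siRBFOX2 above it, without a test of that excess. Under upper-quartile rescaling 58.0% of all siQKI calls were higher, against 45.2% in the scaling of the authors. The median log2 fold change of the 9 genes was -0.01 in siQKI, beside 0.03 over all genes tested, and 0.22 in siRBFOX2, beside 0.01. The libraries did not overlap with siCtrl for 5 of the 9 genes in siQKI (44.7% of all genes) and for 5 of the 9 in siRBFOX2 (37.9%). Both knockdowns are set against the same siCtrl libraries. All changes were well under 2-fold.

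**Figure D2:**
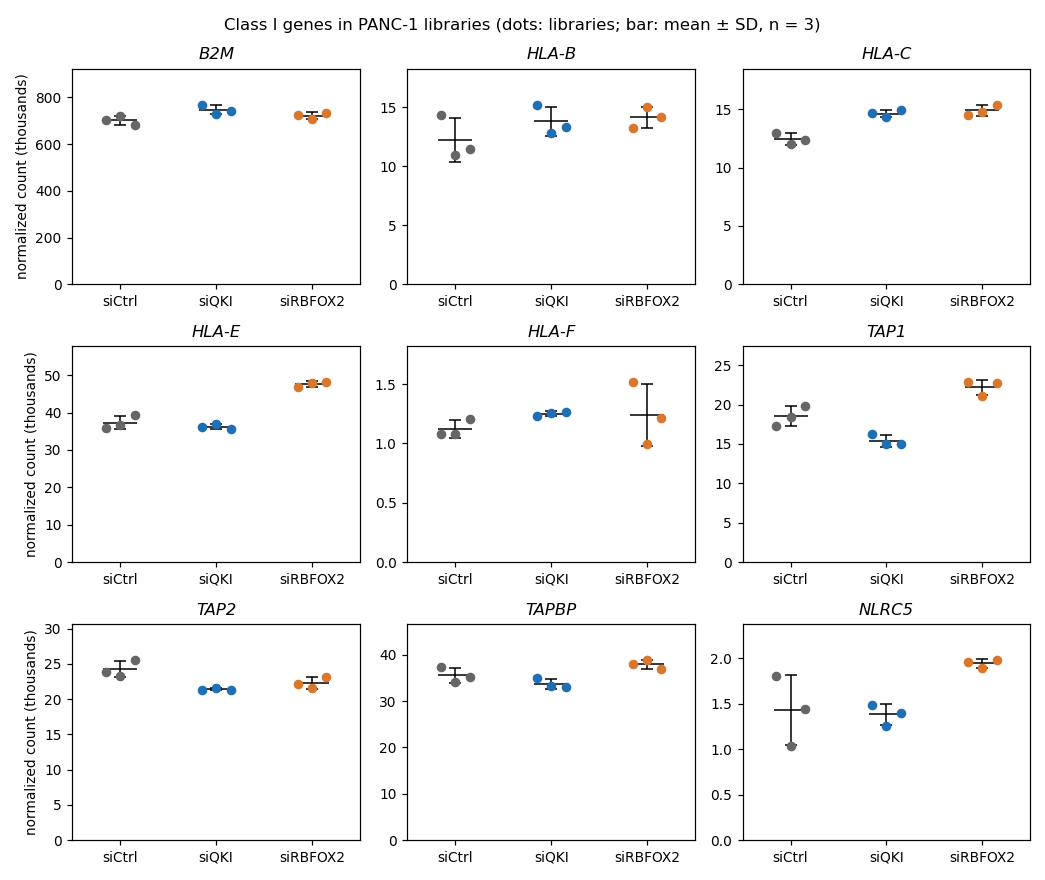
Normalized counts (axes from 0, scaled as each axis label states) of the 9 class I genes in the PANC-1 libraries, with dots for libraries and bars for the mean ± SD (n = 3 per group). TAP1 lies below the siCtrl libraries in siQKI and above them in siRBFOX2, the siRBFOX2 libraries of HLA-E and NLRC5 lie above the other groups, and HLA-C is higher in both knockdowns.

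TAP1, the transporter subunit that pairs with TAP2, moved in opposite directions. Its normalized counts were 17305, 18382 and 19866 in siCtrl, 16310, 15042 and 14949 in siQKI, and 22806, 21114 and 22740 in siRBFOX2. Every siQKI library lay below, and every siRBFOX2 library above, all siCtrl libraries. TAP1 fell by 16.6% in siQKI (log2 fold change -0.26 ± 0.06 SE, limma adjusted p = 0.00182) and rose by 20.1% in siRBFOX2 (0.26 ± 0.06 SE, limma adjusted p = 0.00236). The knockdowns differed directly by -0.53 ± 0.06 SE (siQKI against siRBFOX2, limma adjusted p = 7.72e-06). TAP1 overlaps the antisense gene PSMB8-AS1, and the strand used in counting is not stated. PSMB8-AS1 had a mean of 217 normalized counts in siCtrl, 199 in siQKI and 195 in siRBFOX2, and did not pass the threshold in either knockdown (limma adjusted p = 0.775 and 0.715).

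TAP2 had 23873, 23334 and 25505 normalized counts in siCtrl, 21322, 21615 and 21305 in siQKI, and 22132, 21630 and 23214 in siRBFOX2. All libraries of both knockdowns lay below the siCtrl libraries. TAP2 fell by 11.6% in siQKI (log2 fold change -0.18 ± 0.04 SE, limma adjusted p = 0.00565), while the siRBFOX2 difference of -0.12 ± 0.04 SE did not pass (limma adjusted p = 0.0623) and passed in 3 of 17 alternatives. The direct difference between the knockdowns was -0.06, with a 95% interval of -0.15 to 0.03. Thus, the transporter genes were lowered together in siQKI, whereas in siRBFOX2 TAP1 rose and TAP2 did not.

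TAPBP encodes tapasin, which bridges the transporter and the empty class I molecule. Its normalized counts were 37301, 34210 and 35180 in siCtrl, 34980, 33145 and 33050 in siQKI, and 38054, 38765 and 36950 in siRBFOX2. Libraries of either knockdown overlapped with siCtrl, and neither difference passed (log2 fold change -0.08 in siQKI, limma adjusted p = 0.199, and 0.09 in siRBFOX2, limma adjusted p = 0.129). The siQKI libraries were, however, all below the siRBFOX2 libraries, and the direct difference passed (-0.17 ± 0.04 SE, limma adjusted p = 0.00925), except without the mean-variance trend (adjusted p = 0.0691).

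Of the heavy chains, HLA-C was higher in both knockdowns. Its normalized counts were 12964, 12001 and 12335 in siCtrl, 14644, 14314 and 14906 in siQKI, and 14488, 14798 and 15396 in siRBFOX2. All 6 knockdown libraries lay above all siCtrl libraries. HLA-C rose by 17.6% in siQKI (log2 fold change 0.23 ± 0.05 SE, limma adjusted p = 9.13e-04) and by 19.8% in siRBFOX2 (0.26 ± 0.05 SE, limma adjusted p = 5.82e-04). The direct difference between the knockdowns was -0.03, with a 95% interval of -0.12 to 0.07 on the log2 scale.

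HLA-B had 14340, 10926 and 11468 normalized counts in siCtrl, 15246, 12871 and 13324 in siQKI, and 13223, 15044 and 14181 in siRBFOX2. The highest siCtrl library overlapped with both knockdowns. Neither difference passed (log2 fold change 0.18 ± 0.09 SE in siQKI, limma adjusted p = 0.141, and 0.22 ± 0.09 SE in siRBFOX2, limma adjusted p = 0.0883). A single library decided this: without siCtrl replicate 1, HLA-B was 0.30 higher in siQKI (adjusted p = 0.00637) and 0.34 higher in siRBFOX2 (adjusted p = 0.00416).

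HLA-E, the ligand of an inhibitory NK cell receptor, rose in siRBFOX2. It had 35965, 36617 and 39376 normalized counts in siCtrl, 36064, 37052 and 35600 in siQKI, and 46719, 48012 and 48038 in siRBFOX2. The siRBFOX2 libraries stood apart from both other groups, which overlapped. HLA-E rose by 27.6% (log2 fold change 0.35 ± 0.04 SE, limma adjusted p = 1.56e-05), while in siQKI its log2 fold change was -0.04 with a 95% interval of -0.13 to 0.05. The knockdowns differed by -0.39 ± 0.04 SE (siQKI against siRBFOX2, limma adjusted p = 6.62e-06).

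HLA-F was weakly expressed, with 1082, 1076 and 1207 normalized counts in siCtrl, 1229, 1258 and 1266 in siQKI, and 1513, 992 and 1216 in siRBFOX2. All siQKI libraries lay slightly above siCtrl, and the siRBFOX2 libraries spread across both other groups. HLA-F did not pass in siQKI (log2 fold change 0.16, 95% interval -0.12 to 0.44) or in siRBFOX2 (0.13, 95% interval -0.16 to 0.41). Its antisense neighbour HLA-F-AS1, which overlaps it, averaged 79.6 normalized counts in siCtrl, 105 in siQKI and 206 in siRBFOX2 (limma adjusted p = 0.455 and 0.0417).

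B2M, shared by all class I molecules, was the most abundant of the 9 transcripts and nearly level. Its normalized counts were 702452, 720292 and 679688 in siCtrl, 769082, 729527 and 742022 in siQKI, and 726175, 707535 and 732509 in siRBFOX2. The siQKI libraries lay above siCtrl by 6.58% on average. This did not pass (log2 fold change 0.09, 95% interval 0.01 to 0.17, limma adjusted p = 0.0826), but did under upper-quartile rescaling (0.15, adjusted p = 0.00547). In siRBFOX2 the log2 fold change was 0.04, with a 95% interval of -0.04 to 0.13. An unnamed gene that overlaps B2M averaged 171 normalized counts in siCtrl.

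NLRC5, the class I transactivator, was the least abundant per length. It had 1806, 1037 and 1436 normalized counts in siCtrl, 1486, 1257 and 1401 in siQKI, and 1961, 1889 and 1974 in siRBFOX2. The siRBFOX2 libraries lay close together and above all others, whereas the siCtrl libraries spanned those of siQKI. NLRC5 was 39.5% higher in siRBFOX2 (log2 fold change 0.48 ± 0.15 SE, limma adjusted p = 0.0278). The call was lost in 6 of 17 alternatives, and without siCtrl replicate 2 the log2 fold change was 0.27 (adjusted p = 0.126). Leaving out siCtrl replicate 3 or any of the siRBFOX2 libraries also ended the call (adjusted p from 0.0544 to 0.0705), as did a fit without the mean-variance trend (adjusted p = 0.127). In siQKI its log2 fold change was -0.01, with a 95% interval of -0.34 to 0.31. The difference between the knockdowns was -0.49 ± 0.15 SE (limma adjusted p = 0.0286) and was likewise lost in 6 of 17 alternatives.

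In all, 4 of the 9 genes differed between the knockdowns themselves (HLA-E, TAP1, TAPBP and NLRC5), each lower in siQKI than in siRBFOX2. Over all genes tested 21.5% differed (9.93% higher, 11.6% lower), and the libraries did not overlap for 5 of the 9 class I genes against 35.2% of all genes. The intervals of B2M, HLA-B, HLA-C, HLA-F and TAP2 included 0, the widest being that of HLA-F at -0.25 to 0.32.

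**Figure D3:**
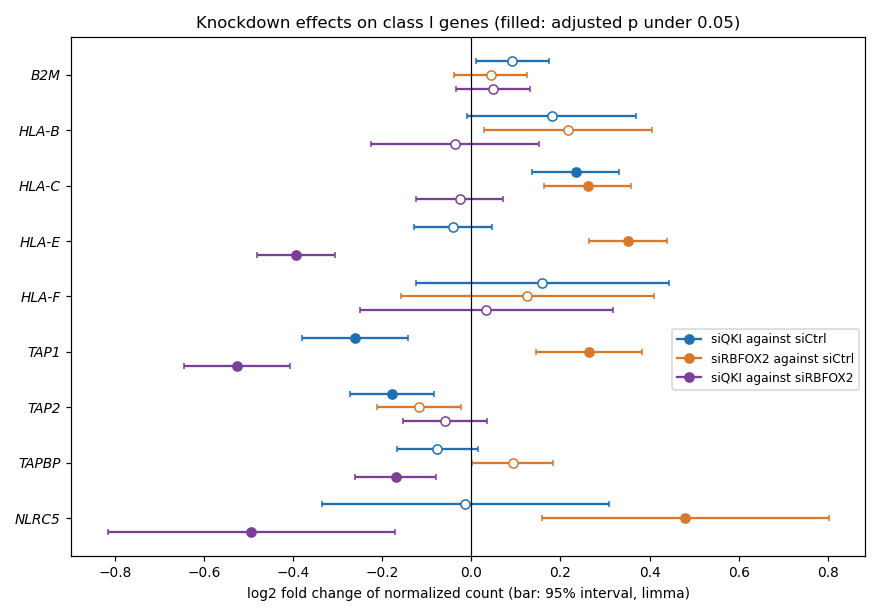
Log2 fold changes of the 9 class I genes in the 3 comparisons among PANC-1 groups, with 95% intervals from limma and filled symbols for an adjusted p under 0.05. The siQKI against siRBFOX2 values of TAP1, HLA-E, NLRC5 and TAPBP lie below 0, and both knockdown values of HLA-C lie above it.

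The genes whose pattern over the 9 PANC-1 libraries was most like that of each class I gene were found by Pearson's r of log2(normalized count + 1) among 17877 other genes with a mean of at least 50. These are descriptions over 9 libraries of 3 groups that share their preparation. For TAP1 they were PKN3 (r = 0.986) and CTNNA1 (r = 0.983), for TAP2 XPNPEP1 (r = 0.976), and for TAPBP ITGB6 (r = 0.967) and a gene without a symbol (r = 0.966). For HLA-E they were TUBB2A (r = 0.989) and NT5C2 (r = 0.986), for NLRC5 USF1 (r = 0.965) and KRBA1 (r = 0.945), and for B2M TMEM238 (r = 0.988) and CYBA (r = 0.985). For HLA-C they were METTL8 (r = 0.983) and a gene without a symbol (r = 0.983), for HLA-F TBC1D7 (r = 0.917) and PRPH (r = 0.895), and for HLA-B a pair without symbols (r = 0.971 and 0.963). No class I gene was among the nearest genes of another. Among the 9 genes the closest pairs were HLA-E with TAP1 (r = 0.885) and NLRC5 with TAPBP (r = 0.842), and B2M with TAP2 was the most opposed (r = -0.776).

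The genes that trim and load peptides held the largest change past the threshold among the class I lists. ERAP1, the aminopeptidase that trims peptides to the length class I molecules bind, had 6439, 6132 and 6727 normalized counts in siCtrl, 16319, 16790 and 16815 in siQKI, and 17327, 18580 and 18979 in siRBFOX2. Every knockdown library exceeded every siCtrl library by more than 2-fold. ERAP1 rose by 1.37 ± 0.05 SE on the log2 scale in siQKI (limma adjusted p = 6.39e-11) and by 1.51 ± 0.05 SE in siRBFOX2 (limma adjusted p = 7.42e-11), and its call was kept in all 17 alternatives of either comparison. ERAP1 overlaps CAST, a far more abundant gene (mean 115010 normalized counts in siCtrl). CAST was -0.12 in siQKI (limma adjusted p = 0.0192) and 0.06 in siRBFOX2 (limma adjusted p = 0.296), so it did not move with ERAP1, but reads of both genes cannot be told apart where the strand is unknown. The related ERAP2 was 0.04 in siQKI (limma adjusted p = 0.623) and rose by 0.30 in siRBFOX2 (limma adjusted p = 0.00148).

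Of the 13 loading and trimming genes, 5 rose and 0 fell in siQKI, where 14.9% of all genes tested rose and 18.1% fell. In siRBFOX2 4 rose and 1 fell, where 12.0% of all genes rose and 14.5% fell. The medians were 0.14 and 0.08. The list gene that fell was THOP1, a cytosolic peptidase that degrades peptides, at -0.74 ± 0.05 SE in siRBFOX2 (limma adjusted p = 2.02e-07). CALR and PDIA3, which form the loading complex with tapasin and also fold other glycoproteins, rose in both knockdowns, CALR by 0.26 and 0.17 and PDIA3 by 0.36 and 0.13 (siQKI, then siRBFOX2), and were chosen after their values were seen, as was ERAP2. PDIA3 overlaps other genes and lost its siRBFOX2 call in 3 of 17 alternatives.

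The proteasome genes moved in both directions. Of the 7 genes of the immunoproteasome and its regulators, 2 rose and 2 fell in siQKI, where 14.9% of all genes rose and 18.1% fell. In siRBFOX2 2 rose and 1 fell, where 12.0% of all genes rose and 14.5% fell. PSME1, a subunit of the PA28 cap of the proteasome whose gene overlaps EMC9, rose by 0.26 ± 0.05 SE in siQKI (limma adjusted p = 5.95e-04) and by 0.29 ± 0.05 SE in siRBFOX2 (limma adjusted p = 3.85e-04). PSME3, which forms a nuclear cap of another kind, fell by 0.53 ± 0.04 SE in siQKI (limma adjusted p = 1.37e-07) and by 0.22 ± 0.04 SE in siRBFOX2 (limma adjusted p = 9.99e-04). The other genes that passed, PSMB8 and PSMB9, are catalytic subunits that interferon induces, and were chosen after their values were seen. PSMB8 fell by 0.35 in siQKI (limma adjusted p = 8.56e-04) and was -0.11 in siRBFOX2 (limma adjusted p = 0.25). PSMB9 rose by 0.22 in both knockdowns (limma adjusted p = 0.00388 and 0.00453).

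PSMB9 and TAP1 are divergent neighbours whose RefSeq starts lie 488 bases apart, on the plus and minus strands. In the deposited annotation they start nearer to each other, PSMB9 at chr6:32854148 and TAP1 at chr6:32854007. In siQKI the values of this pair had opposite signs, 0.22 for PSMB9 and -0.26 for TAP1, and in siRBFOX2 the same sign, 0.22 and 0.26. Of the 3 constitutive catalytic subunits 1 fell in each knockdown, PSMB7 (-0.18, limma adjusted p = 0.00254, and -0.13, limma adjusted p = 0.027). Among all genes tested, 18.1% fell in siQKI and 14.5% in siRBFOX2. The PSMB7 call in siRBFOX2 was lost in 6 of 17 alternatives, with adjusted p of up to 0.11, among them those without siCtrl replicate 2 (0.0748), siCtrl replicate 3 (0.0772) or siRBFOX2 replicate 2 (0.11). PSMB6 did not pass (-0.09 and -0.06).

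Among 18 genes of factors that act at class I promoters, 3 rose and 7 fell in siQKI, where 14.9% of all genes rose and 18.1% fell. In siRBFOX2 7 rose and 2 fell, where 12.0% of all genes rose and 14.5% fell. The medians were -0.03 and 0.05. RFX5, the DNA-binding subunit of the X box complex that recruits NLRC5, rose by 0.40 ± 0.04 SE in siQKI (limma adjusted p = 5.49e-06) and by 0.54 ± 0.04 SE in siRBFOX2 (limma adjusted p = 5.7e-07). NFKB1 rose by 0.36 ± 0.05 SE in siQKI (limma adjusted p = 4.65e-05) and by 0.71 ± 0.05 SE in siRBFOX2 (limma adjusted p = 1.39e-07). ATF1, which binds CRE sites, fell by 0.53 ± 0.06 SE in siQKI (limma adjusted p = 4.57e-06).

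IRF1 and STAT2, transcription factors of the interferon response, moved in the directions of TAP1. They, and IRF9, were chosen after their values were seen. IRF1 had 12122, 12976 and 12702 normalized counts in siCtrl, 10075, 11595 and 10181 in siQKI, and 14098, 15568 and 16205 in siRBFOX2. The 3 groups did not overlap. IRF1 fell by 0.25 ± 0.06 SE in siQKI (limma adjusted p = 0.00624) and rose by 0.28 ± 0.06 SE in siRBFOX2 (limma adjusted p = 0.00408), and the knockdowns differed by -0.53 ± 0.06 SE (limma adjusted p = 2.38e-05). Without the mean-variance trend the adjusted p was 0.0565 and 0.0505 against siCtrl. IRF1 overlaps IRF1-AS1, which did not pass in either knockdown (limma adjusted p = 0.302 and 0.825).

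STAT2 had 8796, 8444 and 9130 normalized counts in siCtrl, 7429, 6853 and 7303 in siQKI, and 10666, 9814 and 9708 in siRBFOX2. It fell by 0.29 ± 0.06 SE in siQKI (limma adjusted p = 7.95e-04) and rose by 0.19 ± 0.06 SE in siRBFOX2 (limma adjusted p = 0.0165), a rise that was lost in 3 of 17 alternatives, including those without siCtrl replicate 2 (adjusted p = 0.0731) and without siRBFOX2 replicate 1 (adjusted p = 0.0862). IRF9, its partner, was 0.19 in siQKI (limma adjusted p = 0.154) and rose by 0.50 in siRBFOX2 (limma adjusted p = 0.00111). IRF9 overlaps PSME2, a far more abundant gene with means of 30023 normalized counts in siCtrl and 32183 in siRBFOX2 (limma adjusted p = 0.0997), so reads of PSME2 counted for IRF9 cannot be told apart from its own. Over the 9 libraries, TAP1 had r = 0.957 with STAT2 and 0.891 with IRF1, which describes values of the same libraries.

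Of the 8 genes of interferon-gamma receptor signalling, 0 rose in either knockdown, where 14.9% (siQKI) and 12.0% (siRBFOX2) of all genes rose. In siQKI 1 fell (JAK2, a kinase that acts at the receptor) and in siRBFOX2 3 fell, where 18.1% and 14.5% of all genes fell. JAK2 fell by 0.37 ± 0.14 SE in siQKI (limma adjusted p = 0.0459), a call that was lost in 10 of 17 alternatives. PTPN2, a phosphatase that dampens the pathway, did not pass (-0.15, limma adjusted p = 0.0594). In siRBFOX2 the inhibitor SOCS3 fell by 0.31 ± 0.04 SE (limma adjusted p = 5.99e-05) and the receptor chain IFNGR2, which overlaps TMEM50B, by 0.27 ± 0.04 SE (limma adjusted p = 2.16e-04), beside SOCS1 (-0.43, limma adjusted p = 0.0388). SOCS1 was chosen after its values were seen.

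**Figure D4:**
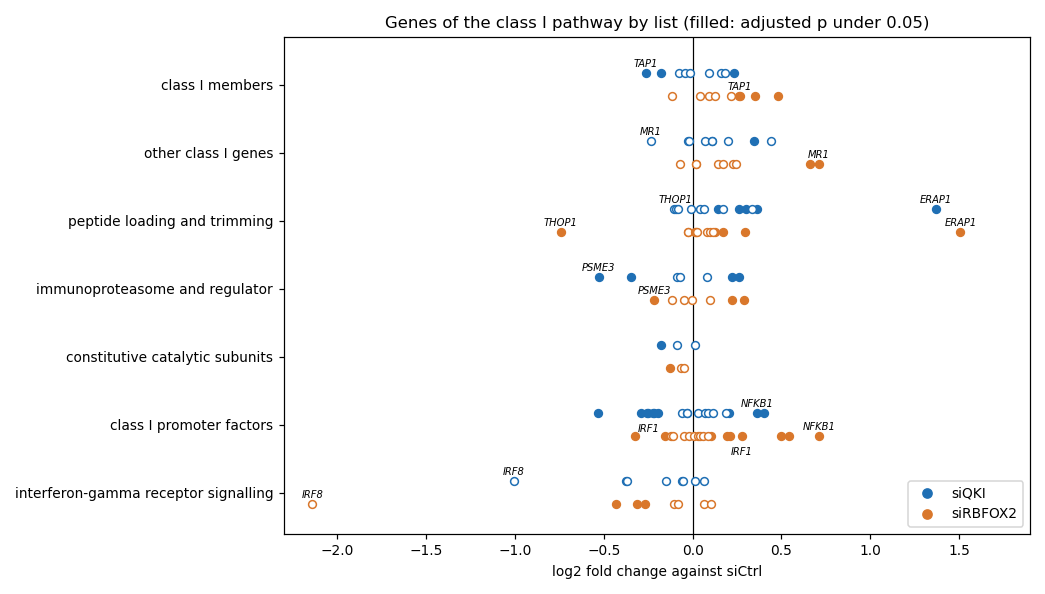
Log2 fold changes against siCtrl of the 9 class I genes and of 6 lists of the class I pathway (1 dot per gene, blue siQKI, orange siRBFOX2, filled for an adjusted p under 0.05). ERAP1 stands apart on the right in both knockdowns at 1.37 and 1.51, TAP1 and IRF1 are on opposite sides of 0, and IRF8 at -2.14 in siRBFOX2 did not pass.

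Among 9 other class I genes tested, HFE rose in both knockdowns and MR1 in siRBFOX2, while 14.9% of all genes rose in siQKI and 12.0% in siRBFOX2. HFE, whose product governs iron uptake and binds no peptide, rose by 0.35 ± 0.08 SE in siQKI (limma adjusted p = 0.00404) and by 0.66 ± 0.08 SE in siRBFOX2 (limma adjusted p = 2.92e-05).

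MR1 presents vitamin metabolites to T cells. It had 311, 313 and 275 normalized counts in siCtrl, 235, 277 and 252 in siQKI, and 466, 636 and 396 in siRBFOX2. MR1 rose by 0.71 ± 0.21 SE in siRBFOX2 (limma adjusted p = 0.0188), but not without siCtrl replicate 3 (adjusted p = 0.0647) or without siRBFOX2 replicate 2 (adjusted p = 0.0995). In siQKI it was -0.23 (limma adjusted p = 0.441), and the knockdowns differed by -0.94 ± 0.21 SE (limma adjusted p = 0.00379). HLA-L, a pseudogene, was 0.44 in siQKI and did not pass (limma adjusted p = 0.0859). The median of the 9 genes was 0.11 in siQKI and 0.17 in siRBFOX2.

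HPAF-II cells had far more heavy chain and B2M transcript than PANC-1 cells, while TAP1 and TAP2 were similar and TAPBP was lower. Since the tables were scaled separately, no test was made between the lines, and values were rescaled to 1000000 per library. On this scale 6 of the 9 genes were at least 2-fold apart, all higher in HPAF-II. Of the 24673 genes compared 52.4% were at least 2-fold apart, and 27.2% were so in the upward direction. For 8 of the 9 genes the libraries of the lines did not overlap, against 63.7% of all genes. The median log2 ratio was 1.48 over the 9 genes and 0.08 over all genes compared.

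The largest ratios were those of HLA-F, HLA-C and HLA-B. HLA-F had rescaled counts of 46.2, 42.9 and 37.4 in HPAF-II against 3.19, 3.09 and 3.50 in PANC-1 siCtrl, 12.9-fold higher. HLA-C had 262, 291 and 425 against 38.3, 34.5 and 35.7, 9.01-fold higher. HLA-B had 284, 296 and 291 against 42.3, 31.4 and 33.2, 8.14-fold higher. The HPAF-II libraries of HLA-C differed among themselves by more than those of HLA-B. B2M had 7685, 7637 and 7140 against 2073, 2069 and 1969, 3.68-fold higher.

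NLRC5 had 8.93, 10.4 and 15.4 in HPAF-II against 5.33, 2.98 and 4.16 in PANC-1 siCtrl, 2.78-fold higher. HLA-E had 216, 224 and 243 against 106, 105 and 114, which is 2.10-fold higher but under 2-fold without rescaling (log2 ratio 0.79) and by median of ratios (0.95). TAP1 overlapped between the lines, at 56.3, 58.9 and 76.9 against 51.1, 52.8 and 57.5. TAP2 had 80.6, 83.3 and 81.9 against 70.5, 67.0 and 73.9. Both transporter genes were higher in HPAF-II, at log2 ratios of 0.25 and 0.22, but lower without rescaling, at -0.03 and -0.06. TAPBP was lower in HPAF-II under each scaling, at 55.0, 52.1 and 82.1 against 110, 98.3 and 102, with a log2 ratio of -0.71.

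Per kilobase of the principal transcript, B2M led in both lines, at 4391 ± 177 rescaled counts per kb in HPAF-II and 1195 ± 34.7 in PANC-1 siCtrl (SD, n = 3). In PANC-1 it was followed by TAPBP (54.8 ± 3.21), HLA-E (41.7 ± 1.87), TAP2 (28.2 ± 1.37), HLA-C (23.5 ± 1.26), HLA-B (23.0 ± 3.79), TAP1 (18.2 ± 1.13), HLA-F (1.99 ± 0.13) and NLRC5 (0.609 ± 0.172). In HPAF-II the order was HLA-C (212 ± 56.7), HLA-B (188 ± 3.90), HLA-E (87.5 ± 5.35), TAPBP (33.4 ± 8.77), TAP2 (32.8 ± 0.55), HLA-F (25.8 ± 2.72), TAP1 (21.6 ± 3.79) and NLRC5 (1.70 ± 0.50). HLA-B, HLA-C and HLA-E thus ranked behind tapasin in PANC-1 and ahead of it in HPAF-II, while HLA-F ranked behind it in both lines. HLA-B and HLA-C did not differ beyond their spread in either line, nor did TAPBP and TAP2 or HLA-F and TAP1 in HPAF-II.

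**Figure D5:**
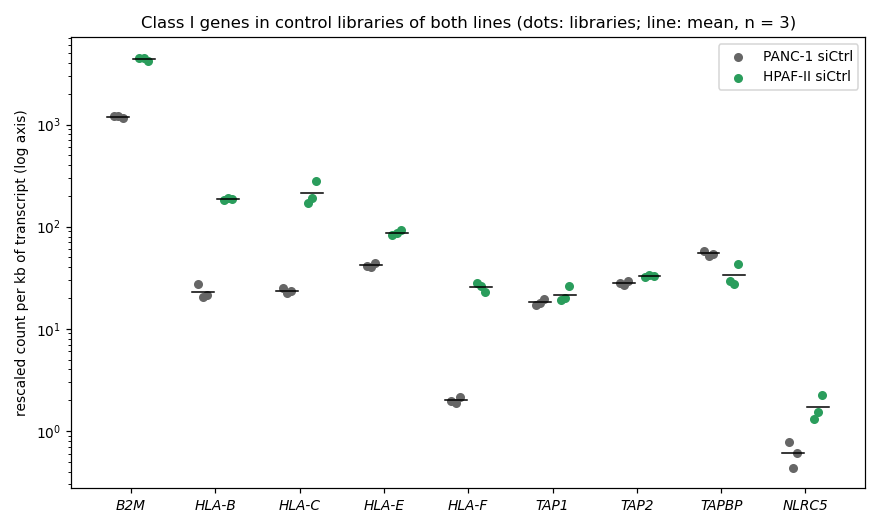
Rescaled counts per kb of principal transcript (log axis) of the 9 class I genes in the siCtrl libraries of PANC-1 (grey) and HPAF-II (green), with dots for libraries and lines for means. B2M, the heavy chains and NLRC5 are higher in HPAF-II, TAP1 overlaps, and TAPBP is lower in HPAF-II.

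The other genes of the pathway were compared in the same way, without a test. Among all genes compared, 27.2% were at least 2-fold higher in HPAF-II and 52.4% at least 2-fold apart in either direction. Of the 7 immunoproteasome and regulator genes 4 were at least 2-fold higher in HPAF-II and 0 were lower, with a median log2 ratio of 1.14. PSMB8 was 59.2 ± 7.46 rescaled counts in HPAF-II and 14.5 ± 0.36 in PANC-1, and PSME1 was 458 ± 47.4 and 67.1 ± 3.67. The 3 constitutive subunits had a median of -0.42, and 0 of them were 2-fold apart. Of the 18 promoter factors 6 were at least 2-fold higher and 1 lower. IRF1 was 127 ± 18.1 in HPAF-II against 36.6 ± 0.76, STAT2 was 66.6 ± 2.14 against 25.6 ± 1.15, and RFX5 overlapped between the lines. ERAP1 was 77.4 ± 16.6 in HPAF-II against 18.7 ± 0.97, while ERAP2 was 5.51 ± 1.57 against 15.9 ± 0.99. QKI itself was 5.13-fold lower in HPAF-II, and RBFOX2 1.46-fold lower.

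The lines also differ in markers of other kinds. All 6 epithelial markers were at least 2-fold higher in HPAF-II (summed 10943 to 11850 rescaled counts against 2550 to 2643 in PANC-1 siCtrl), as were 27.2% of all genes. The summed blood cell markers reached 1054 to 1166 in HPAF-II against 1.29 to 2.28 in PANC-1 siCtrl, of which LYZ, the lysozyme gene, made up 1094 ± 60.6, while PTPRC and MS4A1 were at 0 in both. Their part in the class I values was not tested.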

How the data were processed

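RNA was measured in 12 polyA-selected libraries (Universal Plus mRNA-Seq kit, RNA extracted with RNeasy and DNase, paired-end sequencing on an Illumina NovaSeq, per the labels and the study's methods). The submitters' processing notes name STAR 2.7.5a, DESeq2, SAMtools, Picard and FastQC, and genes follow the FAST DB annotation on hg38. The deposited signal in each table is the gene count after the authors had divided it by a size factor from DESeq2, separately for the 9 PANC-1 and the 3 HPAF-II libraries. Every value was a whole multiple of a step (within 0.01), and 82.1% to 84.8% of values of 1 to 30 steps per library were multiples of 3, so steps are not fragments and no count model was used. Precision therefore comes from the replicates. Strand and the handling of reads that match several genes are not given in the sources used here.

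For PANC-1, limma 3.58.1 (R 4.3.3) was fitted to log2(normalized count + 1) with eBayes moderation and its trend option, in a single fit of 9 libraries without a block, over 22544 genes with a mean of at least 10, with Benjamini-Hochberg adjustment over all of them and a threshold of 0.05. The pseudocount understates changes of genes with low values. The median standard error was 0.14. HPAF-II and PANC-1 were described without a test on values rescaled to 1000000 per library, with a pseudocount of 0.01 on log2 ratios, for 24673 genes with a mean of at least 10 in either line. Lengths are those of the longest principal transcript of GENCODE v29. Promoters came from RefSeq and were searched in Python 3.11.15 (pandas 2.3.3, numpy 2.4.6), and matplotlib 3.10.9 made the figures.

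Symbols joined in the tables were matched on each part. Of 108 list genes, 107 were matched. The class I genes and the lists were chosen with earlier results of these data known. From each list the text names genes past the threshold with an absolute log2 fold change of at least 0.58, at most 4 per knockdown, or else the 2 with the smallest adjusted p, and the text says where a gene outside this rule was picked on its values. Some genes that these rules cover are not reported here. Alternatives were pseudocounts of 0.1 and 10, no filter, a mean of at least 50, upper-quartile rescaling, only the groups compared, no mean-variance trend, a replicate block, an adjusted p under 0.01, and each library left out in turn, and for the lines 4 other scalings or pseudocounts. A planned count test was not run.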

Additional observations from a re-analysis of the deposited data

How the results depend on the processing

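Of the class I members, HLA-C, TAP1 and TAP2 in siQKI, HLA-C, HLA-E and TAP1 in siRBFOX2, and HLA-E and TAP1 between the knockdowns kept their direction and call in all 17 alternatives. The number of class I members past the threshold was 3 to 4 in siQKI and 3 to 5 in siRBFOX2 over all alternatives. In siQKI against siRBFOX2 it was 3 to 4 when libraries were left out, but 2 members without the mean-variance trend, where TAPBP and NLRC5 were lost. The cause was not tested. At an adjusted p under 0.01 it was 3 members in siQKI, 3 in siRBFOX2 and 3 between the knockdowns. HPAF-II and PANC-1 siCtrl were at least 2-fold apart for 5 members without rescaling and by median of ratios, and for 6 otherwise. The median log2 ratio of all genes moved from 0.08 to -0.20 without rescaling. In siQKI, upper-quartile rescaling turned the split of all calls from 3362 higher and 4070 lower to 4225 higher and 3057 lower (58.0% higher against 45.2%).

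Values of members that had not passed changed sign in a few settings, none of them past the threshold. Under upper-quartile rescaling in siQKI, HLA-E was 0.0208 and NLRC5 0.0486, and HLA-C between the knockdowns was 0.0041. With libraries left out, NLRC5 in siQKI ranged from -0.22 to 0.17 and HLA-F in siRBFOX2 from -0.0286 to 0.28. Between the knockdowns, HLA-B ranged from -0.11 to 0.0125 and HLA-F from -0.12 to 0.19.

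Replicate numbers are shared by the PANC-1 groups. Same-numbered libraries deviated together with r from -0.0325 to 0.0235, and others with r from -0.0333 to 0.0384, so the numbers were not taken as pairs. With a replicate block, the same 3, 4 and 4 class I members passed in siQKI, in siRBFOX2 and between the knockdowns, and 7336 genes passed in siQKI against 7432 without it. The planned count test was not run, since the steps of the values are not fragments.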

Other observations

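MHC class II genes, which present to CD4+ T cells and are usually made by specialized cells, were low in PANC-1. Of 13 genes, 8 could be tested there, 2 rose in siQKI and 3 rose in siRBFOX2, and 0 fell. Among all genes tested, 14.9% rose and 18.1% fell in siQKI, and 12.0% rose and 14.5% fell in siRBFOX2. CD74, the invariant chain, had 1089, 878 and 974 normalized counts in siCtrl, 1953, 1508 and 1334 in siQKI, and 1344, 1828 and 1626 in siRBFOX2. It rose by 0.69 ± 0.15 SE in siQKI (limma adjusted p = 0.00175) and by 0.70 ± 0.15 SE in siRBFOX2 (limma adjusted p = 0.00228). HLA-DOB, which tempers class II loading, had 42.0 to 66.1 in siCtrl, 119 to 184 in siQKI and 129 to 260 in siRBFOX2 (log2 fold changes 1.45 and 1.82, limma adjusted p = 0.00571 and 0.00154). The class II transactivator CIITA was at 0, 0 and 30.2 in siCtrl and at 35.8, 52.3 and 66.7 in siRBFOX2 (limma adjusted p = 0.0433), a call lost in 10 of 16 alternatives. It overlaps DEXI, which averaged 7088. In HPAF-II, CD74 was 70.5 ± 4.18 rescaled counts against 2.85 ± 0.35 in PANC-1 siCtrl (SD, n = 3). There 9 of the 10 class II genes compared were at least 2-fold higher, against 27.2% of all genes.

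Ligands read by NK and T cells changed in both directions. Of 13 tested, 0 rose and 3 fell in siQKI, where 14.9% of all genes rose and 18.1% fell. In siRBFOX2 2 rose and 4 fell, where 12.0% of all genes rose and 14.5% fell. RAET1E, a ligand of the activating receptor NKG2D, had 348, 306 and 354 normalized counts in siCtrl, 76.4, 115 and 104 in siQKI, and 167, 214 and 276 in siRBFOX2. It fell by 1.78 ± 0.27 SE in siQKI (limma adjusted p = 0.000115) and was -0.64 in siRBFOX2 (limma adjusted p = 0.0999). ULBP1, another ligand of the list, rose by 0.86 ± 0.20 SE in siRBFOX2 (limma adjusted p = 0.00487). CD276 also rose in siRBFOX2, while MICA, MICB, NECTIN2 and PVR fell there. In siQKI, CD276 and PVR were the other genes that fell. The CD276 call in siQKI was lost under upper-quartile rescaling (limma adjusted p = 0.0619). MICA and MICB were far more abundant than ULBP1 in the siCtrl libraries of PANC-1. CD276, MICA, MICB, NECTIN2 and PVR were named after their values were seen. RAET1E overlaps RAET1E-AS1, which did not pass (limma adjusted p = 0.157 and 0.801).

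Genes that lie between or beside the class I and II genes on chromosome 6 but have other functions numbered 2 higher and 9 lower of 19 tested in siQKI, where 14.9% of all genes were higher and 18.1% lower, and 1 higher and 7 lower in siRBFOX2, where 12.0% were higher and 14.5% lower. Their medians were -0.12 and -0.02, beside 0.03 and 0.01 over all genes. The split of all siQKI calls depends on the scaling, with 58.0% higher after upper-quartile rescaling. GNL1, which overlaps PRR3, fell by 0.76 ± 0.04 SE in siQKI (limma adjusted p = 4.16e-09), and the non-coding HCP5 rose by 1.97 ± 0.54 SE from a mean of 37.0 normalized counts (limma adjusted p = 0.0102), but not without siQKI replicate 1 (adjusted p = 0.0525). In siRBFOX2, BAG6 fell by 0.26 ± 0.03 SE (limma adjusted p = 2.92e-05) and HCG18 rose by 0.42 ± 0.06 SE (limma adjusted p = 6.59e-05). BAG6 overlaps APOM. HCG18 overlaps 6 genes, among them TRIM39 (mean 2651 normalized counts in siCtrl) and HLA-L (680). APOM, TRIM39 and HLA-L did not pass in siRBFOX2 (limma adjusted p = 0.277, 0.381 and 0.561).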
